A study of Mus musculus with 10 samples.

Results

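Imprinted genes are described here across 5 groups of mouse cells: 40 genes of the 24540 named genes in the counts table, taken by symbol from a list of genes known to be expressed from a single parental allele in mouse. Of the 40, 24 are expressed from the paternal allele, 14 from the maternal allele, and 2 (Grb10 and Gnas) from an allele that depends on tissue or isoform. The study derived cells labelled cardiomyocytes from a C57BL/6N-C2 embryonic stem (ES) cell line and exposed them to TCDD, the dioxin that activates the aryl hydrocarbon receptor (AHR). It asked how expression differed between those cells and ES cells, and how it varied between exposure times. Polyadenylated RNA was sequenced from 10 libraries, 2 in each group.

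The groups labelled cardiomyocytes received TCDD at 5 nM in DMSO for 24, 72 or 96 h, or DMSO alone at no more than 0.05% for 24 h. The last group held undifferentiated, untreated ES cells, called parental in the labels, which do not say whether they carried the construct of the other groups. The cells that were differentiated came from a subline with the plasmid pNkx2.5PuroIRES2eGFP, in which promoter sequence of Nkx2.5, a cardiac transcription factor, drives puromycin resistance and a fluorescent protein, and had been selected with G418. Differentiation took place without the leukemia inhibitory factor that ES medium held, with Noggin, then BMP4, and then puromycin to select cells with an active Nkx2.5 promoter. DMSO cells were sampled at 24 h only, so in the 72 h and 96 h comparisons exposure and time in culture cannot be told apart. Nothing in the labels states that the 2 libraries of a group are separate cultures. The p-values thus rest on library-to-library spread, which may be technical.

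Imprinting is set in the germ line, where methylation is laid down on one parental copy of a control region and then kept through the genome-wide loss of methylation in the early embryo. Many imprinted genes lie in clusters in which a long noncoding RNA, or an insulator bound by CTCF, keeps the neighbouring protein-coding genes silent on one chromosome. As a rule of thumb, paternally expressed genes such as Igf2 favour growth of the embryo and placenta and maternally expressed genes such as Cdkn1c and Igf2r restrain it. The counts sum both parental alleles, so they give the level of each gene and not the allele it came from.

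The promoters of 5 members on which the results turn are shown to let their sequence be set beside the expression values. Each runs from 250 bases before to 50 bases after a RefSeq transcription start on build GRCm38.p6, 5′ to 3′ on the strand of the gene. Capitals mark TGCCGC or its reverse complement GCGGCA, the core letters recognised, when methylated, by ZFP57, a zinc finger protein that protects imprints. Igf2 lies at chr7:142657447-142657746 on the minus strand, Mest at chr6:30737800-30738099 on the plus strand, Nnat at chr2:157559828-157560127 on the plus strand, Peg3 at chr7:6730370-6730669 on the minus strand and Grb10 at chr11:12037371-12037670 on the minus strand.
Igf2: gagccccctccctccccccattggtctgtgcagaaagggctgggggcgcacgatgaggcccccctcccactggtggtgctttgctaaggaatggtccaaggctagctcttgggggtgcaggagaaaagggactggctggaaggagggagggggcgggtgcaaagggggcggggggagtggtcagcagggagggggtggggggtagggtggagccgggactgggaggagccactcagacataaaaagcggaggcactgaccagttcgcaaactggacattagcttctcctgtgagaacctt
Mest: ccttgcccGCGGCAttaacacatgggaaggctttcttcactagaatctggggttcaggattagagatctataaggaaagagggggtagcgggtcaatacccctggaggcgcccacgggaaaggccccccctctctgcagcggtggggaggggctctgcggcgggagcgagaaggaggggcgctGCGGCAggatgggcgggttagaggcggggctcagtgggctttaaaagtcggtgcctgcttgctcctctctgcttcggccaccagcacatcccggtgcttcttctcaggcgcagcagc
Nnat: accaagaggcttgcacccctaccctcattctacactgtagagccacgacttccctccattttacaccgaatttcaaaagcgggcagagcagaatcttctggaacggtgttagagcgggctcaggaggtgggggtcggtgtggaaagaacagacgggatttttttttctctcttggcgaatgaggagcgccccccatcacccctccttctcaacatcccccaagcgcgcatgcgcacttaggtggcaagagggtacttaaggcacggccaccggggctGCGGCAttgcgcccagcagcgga
Peg3: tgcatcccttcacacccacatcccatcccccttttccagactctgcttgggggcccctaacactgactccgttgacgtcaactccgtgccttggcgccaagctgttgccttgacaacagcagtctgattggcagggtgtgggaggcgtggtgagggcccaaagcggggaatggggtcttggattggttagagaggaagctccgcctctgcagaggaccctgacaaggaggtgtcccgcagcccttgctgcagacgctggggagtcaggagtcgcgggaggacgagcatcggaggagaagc
Grb10: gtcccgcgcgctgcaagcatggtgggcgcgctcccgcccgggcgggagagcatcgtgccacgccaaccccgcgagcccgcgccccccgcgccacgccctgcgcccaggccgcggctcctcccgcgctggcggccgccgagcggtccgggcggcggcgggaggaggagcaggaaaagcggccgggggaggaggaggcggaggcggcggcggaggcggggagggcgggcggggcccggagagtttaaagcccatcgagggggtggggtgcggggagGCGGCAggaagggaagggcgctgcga
These windows differ in composition: Grb10 held 45 CpG dinucleotides, Mest and Nnat 17 each, Peg3 13 and Igf2 7. The ZFP57 letters occurred 2 times in the Mest window and 1 time each in those of Nnat and Grb10, and were not in the Igf2 or Peg3 windows printed here. Another start of Igf2 (chr7:142661222-142661521) held 1 match. The window of Peg3 overlaps that of Usp29, which starts in the opposite direction.

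RefSeq promoters were matched for 34 of the 40 members, with 51 windows in all because some genes have several starts. The ZFP57 letters were found on either strand in 11 of the 51 windows, or 21.6%, against 11.6% of the 32851 promoters in the table. Overlapping windows of a gene were counted separately, as for the Mest windows chr6:30737800-30738099 and chr6:30737803-30738102, with 2 matches each. GCGTG, the core letters to which AHR and its partner ARNT bind, occurred in 22 of the 51 windows, or 43.1%, against 32.4% of all promoters. The median window of an imprinted gene held 13 CpG dinucleotides, against 7 over all promoters. The part of this CpG content in the shares was not tested. A match is a description of the letters and not of binding.

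Totals per library ran from 15326612 counts in TCDD 72 h replicate 1 to 31192459 in DMSO replicate 1, and a count of 0 allowed up to 0.0962 to 0.196 CPM (3 counts, as CPM, the count scaled to library size). Such limits, and the intervals given with ratios below, cover counting error only. Imprinted genes together took 0.137 to 0.479% of the counts. Libraries stood apart in 3 groups: ES replicate 2 and TCDD 24 h replicate 1 had the widest trends of counts with GC content (2.04 and 1.16 on the log2 scale, against 0.0890 to 0.746 elsewhere), and in TCDD 72 h replicate 1 the ribosomal transcript Rn45s took 10.95% of counts, against 1.45 to 4.22% elsewhere. Per gene, the chi-square between replicates was 3.23 for DMSO, 18.9 for TCDD 96 h, 86.5 for TCDD 24 h, 191 for TCDD 72 h and 196 for ES cells, so values rest on a tighter pair in DMSO than elsewhere. The targeted promoter's own gene, Nkx2-5, stayed between 0.399 and 3.66 CPM in all libraries.

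Of the 40 members, 38 passed the filter on low counts and were tested, and 30 averaged at least 5 CPM in at least 1 group. Snrpn, a splicing protein gene of the Prader-Willi region, had 0 to 8 counts per library, and Rasgrf1, a Ras exchange factor gene, had 0 to 4. Both were left untested. Snrpn shares its strand with Snurf, which had 0 counts in every library, so no reads were assigned to Snurf. Snrpn also shares its strand with Snhg14, which had 14 to 2075 counts. Whether reads in these overlaps were assigned to Snhg14 or to no gene was not tested. The low counts therefore do not show that Snrpn was silent. Per kilobase of the longest annotated transcript, Peg10 (126 CPM per kb) and H19 (101) had the highest levels among members in DMSO cells. In ES cells Cd81 (155 CPM per kb), Slc38a4 (59.7) and Grb10 (55.8) came first. Airn, Rian and Kcnq1ot1 had no transcript length and are outside this order.

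The first comparison asked which imprinted genes differed between DMSO cells and ES cells. Of the 38 tested, 16 were higher and 4 lower in DMSO cells (edgeR, adjusted p under 0.05 over all genes), while 31.0% of all 15175 tested genes were called, 15.5% higher and 15.5% lower. Among the paternally expressed genes 13 of 22 were higher and 0 lower, with a median log2 difference of 2.35. Among the maternally expressed genes 3 of 14 were higher and 3 lower, with a median of 0.71. Grb10, of the genes whose allele varies with tissue or isoform, was lower and Gnas did not pass. The median over the 38 was 1.37, against 0.01 over all tested genes. Values of the 2 groups did not overlap for 31 members, 25 higher and 6 lower, and for 71.5% of all genes, 36.4% higher and 35.1% lower. Airn, Asb4, Magel2 and Dio3, all called higher, averaged at most 0.287 CPM in ES cells. They passed the filter on low counts through DMSO and TCDD libraries, so a lower call was hardly open to them. The same holds for Rtl1, Zim1 and Nap1l5, which were not called. These genes enter the counts and medians given here, and the shares over all genes rest on the same filter.

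**Figure D1:**
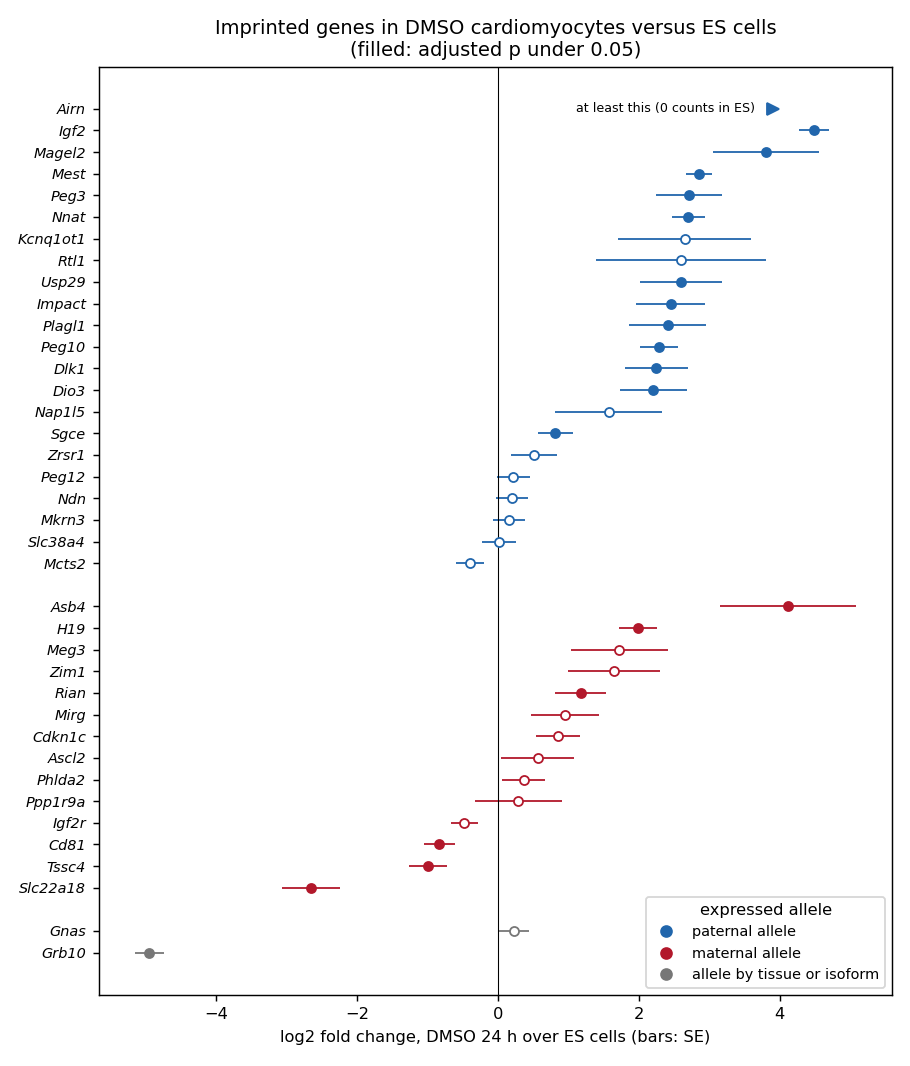
Log2 fold change of each tested imprinted gene in DMSO cells over ES cells (x axis, bars 1 SE, n = 2 libraries each), ordered within the expressed allele, with filled points where the adjusted p is under 0.05. Paternally expressed genes lie mostly right of 0, with Igf2 at 4.49, and Grb10 stands at -4.95. The Airn arrow marks a lower bound.

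The insulin-like growth factor region on chromosome 7 gave 2 of 2 members higher in DMSO cells. Igf2, the fetal growth factor (gene span chr7:142650768-142666816, minus strand), had 295 and 306 CPM in DMSO libraries, against 13.6 and 13.2 CPM in ES libraries. The difference was 22.5-fold, or 4.49 ± 0.22 on the log2 scale (SE), with an adjusted p of 1.39e-05. H19, the maternally expressed noncoding RNA downstream of Igf2, had 235 and 227 CPM in DMSO libraries and 48.1 and 68.2 CPM in ES libraries, 3.97-fold higher (1.99 ± 0.26 log2, adjusted p = 7.81e-04). In neither gene did the groups overlap. The log2 ratio of H19 to Igf2 counts averaged -0.38 in DMSO libraries, against 2.10 in ES libraries. Igf2 thus had more reads than H19 in both DMSO libraries and fewer in both ES libraries. Per kilobase of the longest annotated transcript, H19 was above Igf2 in DMSO cells as well, at 101 against 63.7 CPM per kb.

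Grb10, an adaptor that restrains signalling from the insulin and IGF1 receptors, moved the other way and had the smallest adjusted p among members. It had 9.05 and 9.18 CPM in DMSO libraries, against 302 and 263 CPM in ES libraries (-4.95 ± 0.21 log2, adjusted p = 6.29e-06). The lowest ES value was more than an order of magnitude above the highest DMSO value. Grb10 spans chr11:11930499-12037428 on the minus strand, between Ddc (chr11:11814101-11898144) and Cobl (chr11:12236676-12465022). Cobl, an actin nucleator gene, averaged 9.75 ± 0.342 CPM in DMSO cells, against 196 ± 21.3 CPM in ES cells (SD, n = 2 each), a log2 difference of -4.33 ± 0.25 (adjusted p = 2.12e-05). Ddc, which encodes dopa decarboxylase and was picked out after its values were seen as the neighbour on the other side, averaged 11.9 ± 0.830 CPM in DMSO cells, against 31.3 ± 3.25 CPM in ES cells (-1.39 ± 0.30 log2, adjusted p = 0.00874). All 3 genes were thus lower in DMSO cells.

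Single paternally expressed loci gave further large differences. Mest, which encodes a hydrolase-like protein first known from mesoderm, had 159.9 and 161 CPM in DMSO libraries, against 22.5 and 21.8 CPM in ES libraries (2.85 ± 0.18 log2, adjusted p = 2.62e-05). Nnat, or neuronatin, a small membrane protein of the endoplasmic reticulum, had 17.5 and 15.3 CPM in DMSO libraries, against 2.53 and 2.50 CPM in ES libraries (2.70 ± 0.23 log2, adjusted p = 8.97e-05). In both genes the spread within a group was small beside the gap between groups.

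Impact, which restrains the amino acid sensor GCN2, had 149 and 156 CPM in DMSO libraries, against 43.2 and 12.5 CPM in ES libraries (2.45 ± 0.50 log2, adjusted p = 0.00644). Plagl1, a zinc finger transcription factor gene, had 12.0 and 14.0 CPM in DMSO libraries, against 3.72 and 1.13 CPM in ES libraries (2.41 ± 0.55 log2, adjusted p = 0.0109). The ES libraries lay far apart in both genes, with replicate 2 the lower, but all DMSO values were above them. Without ES replicate 1 the difference was 3.62 log2 for Impact and 3.53 for Plagl1, and without ES replicate 2 it was 1.82 for Impact and 1.81 for Plagl1. ES replicate 2 was also the library with the widest GC trend, whose part was not tested. Gnas, which encodes the stimulatory G protein alpha subunit, and Slc38a4, an amino acid transporter gene, did not pass, with 0.22 ± 0.21 and 0.01 ± 0.24 log2. Nap1l5, Mcts2 and Zrsr1, retrogenes inside or near a host gene whose near-copies could share reads, did not pass either (1.57 ± 0.76, -0.39 ± 0.20 and 0.51 ± 0.33 log2).

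In the Peg3 region, Peg3, a zinc finger protein gene, had 243 and 276 CPM in DMSO libraries, against 57.7 and 21.5 CPM in ES libraries (2.71 ± 0.47 log2, adjusted p = 0.00313). Without ES replicate 1 the Peg3 difference was 3.60 log2. Usp29, a member of the ubiquitin-specific protease family with which Peg3 shares its start region, was higher at lower counts, with 3.79 and 4.87 CPM in DMSO libraries, against 1.20 and 0.196 CPM in ES libraries (2.60 ± 0.58 log2, adjusted p = 0.0100). Its difference was 4.43 log2 without ES replicate 1 and 1.85 without ES replicate 2, and over all alternatives it ran from 1.83 to 4.43. The maternally expressed Zim1 did not pass (1.65 ± 0.66 log2, adjusted p = 0.0852). All 3 were without overlap between the groups.

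In the Peg10 region 3 of 4 members were higher in DMSO cells. Peg10, a gene derived from a retrotransposon and needed for the placenta, had 789.9 and 886 CPM in DMSO libraries, against 207 and 134 CPM in ES libraries (2.29 ± 0.27 log2, adjusted p = 4.15e-04). Sgce, the epsilon sarcoglycan gene that starts beside Peg10 on the other strand, had 7.98 and 9.46 CPM in DMSO libraries, against 5.23 and 4.65 CPM in ES libraries (0.82 ± 0.25 log2, adjusted p = 0.0381). This call was kept in 6 of 13 alternatives, and when each library's GC trend was offset in the fit the Sgce difference turned to -0.64. Asb4, an ankyrin repeat gene, had 47 counts in DMSO libraries and 2 in ES libraries, a scaled ratio of 18.8 (exact 95% Poisson interval 5.21 to 155 for the ES count; adjusted p = 0.0126). Both ES counts of Asb4 were in replicate 1, so a fitted difference without that library depends on the prior count, and without ES replicate 2 it was 3.26 log2, against 4.12 with all libraries. Ppp1r9a, which encodes the actin-binding neurabin, did not pass (0.29 ± 0.62 log2).

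In the Dlk1-Dio3 region on chromosome 12, all 6 members had fitted differences above 0 and 3 passed. The paternally expressed Dlk1, a membrane protein related to Notch ligands, had 7.49 and 8.12 CPM in DMSO libraries, against 0.753 and 2.55 CPM in ES libraries (2.25 ± 0.45 log2, adjusted p = 0.00613). Its difference was 1.62 log2 without ES replicate 1, the lower library, and 3.37 without ES replicate 2. Rian, a maternally expressed noncoding RNA that hosts small nucleolar RNAs, had 86.4 and 89.4 CPM in DMSO libraries, against 47.6 and 30.3 CPM in ES libraries (1.17 ± 0.36 log2, adjusted p = 0.0369). Meg3, another maternally expressed noncoding RNA of the cluster, had 48.1 and 53.9 CPM in DMSO libraries, against 19.01 and 11.8 CPM in ES libraries. Its groups did not overlap, but it did not pass (1.73 ± 0.69 log2, adjusted p = 0.0863).

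Dio3, the deiodinase that inactivates thyroid hormone, passed at a low level (1.31 ± 0.226 CPM in DMSO cells and 0.287 ± 0.218 CPM in ES cells, SD, n = 2 each, adjusted p = 0.00880). Its difference of 2.21 log2 was 1.58 without ES replicate 1 and 3.27 without ES replicate 2. Mirg, a host transcript of many microRNAs, did not pass (0.95 ± 0.48 log2). Rtl1, a retrotransposon-derived gene whose antisense strand carries microRNAs, had 39 counts in DMSO libraries and 5 in ES libraries and did not pass (adjusted p = 0.131).

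In the Kcnq1ot1 domain on chromosome 7, 0 of 7 members were higher and 3 lower in DMSO cells. Cd81, a tetraspanin gene, had 143 and 136 CPM in DMSO libraries, against 213 and 284 CPM in ES libraries (-0.83 ± 0.22 log2, adjusted p = 0.0207). Tssc4, its neighbour, had 24.9 and 22.6 CPM in DMSO libraries, against 34.6 and 59.7 CPM in ES libraries (-0.99 ± 0.27 log2, adjusted p = 0.0236). Slc22a18, a transporter gene, was lower at 0.475 ± 0.0632 CPM in DMSO cells, against 3.06 ± 0.874 CPM in ES cells (SD, n = 2 each; -2.66 ± 0.41 log2, adjusted p = 0.00178). Cd81 and Tssc4 are known to be imprinted mainly in the placenta. For none of the 3 did the groups overlap.

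Cdkn1c, the cyclin-dependent kinase inhibitor of the same domain, had 12.5 and 13.5 CPM in DMSO libraries, against 5.14 and 9.21 CPM in ES libraries, and did not pass (0.86 ± 0.31 log2, adjusted p = 0.0658). Kcnq1ot1, the paternally expressed noncoding RNA that silences the domain in cis, had 79.7 and 98.8 CPM in DMSO libraries, against 21.7 and 6.61 CPM in ES libraries. It did not pass (2.65 ± 0.95 log2, adjusted p = 0.0606), although all DMSO values were above all ES values. Phlda2, which limits placental growth, and Ascl2, a transcription factor of the trophoblast, did not pass (0.36 ± 0.31 and 0.56 ± 0.51 log2).

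At the Igf2r-Airn locus the noncoding Airn, which silences Igf2r on the paternal chromosome, had 56 counts over the DMSO libraries and 0 over the ES libraries. It was thus at least 15.0-fold higher in DMSO cells, with 3 counts over the ES group taken as the limit (adjusted p = 0.0109). Its level was 0.764 and 1.48 CPM in the DMSO libraries. Igf2r, the receptor that clears IGF2 and carries mannose-6-phosphate cargo, had 109.6 and 116 CPM in DMSO libraries, against 163 and 151 CPM in ES libraries, and did not pass (-0.48 ± 0.19 log2, adjusted p = 0.0805). Airn lies across the start of Igf2r on the other strand. The libraries were strand-specific per the labels' protocols, but the sources used here do not give the strand setting of the counting, so reads of such pairs may not be fully told apart. The same holds for Kcnq1ot1 and Kcnq1, Peg3 and Peg3os, Usp29 and Zim3, Mest and Copg2, Nnat and Blcap, Nap1l5 and Herc3, Zrsr1 and Commd1, Cd81 and R74862, and Rtl1 and its antisense microRNAs.

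In the Snrpn region on chromosome 7, Magel2, a MAGE family gene lost in Prader-Willi syndrome, was higher in DMSO cells at 2.97 ± 0.420 CPM, against 0.204 ± 0.150 CPM in ES cells (SD, n = 2 each; 3.81 ± 0.75 log2, adjusted p = 0.00577). Without ES replicate 1 its difference was 4.87 log2. Its neighbours Ndn, which encodes the growth suppressor necdin, Mkrn3 and Peg12 did not pass, with fitted log2 differences between 0.16 and 0.22.

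**Figure D2:**
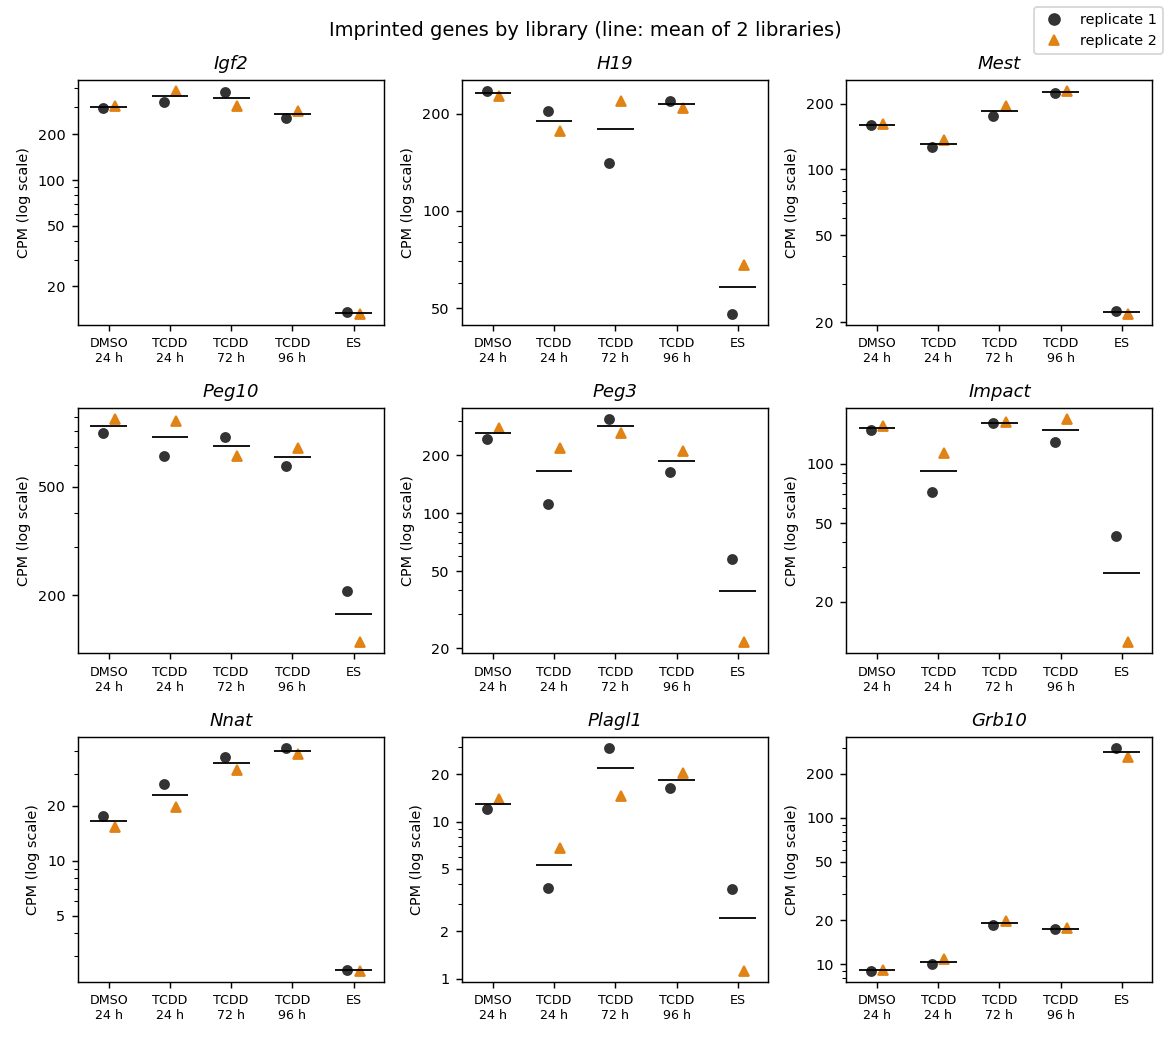
Level of 9 imprinted genes in each library (y axis, CPM on a log scale; points are libraries, the line the mean of 2) across DMSO, TCDD at 24, 72 and 96 h, and ES cells. Igf2 lies at 295 and 306 CPM in DMSO libraries and at 13.6 and 13.2 CPM in ES libraries, while Grb10 lies at 9.05 and 9.18 CPM in DMSO libraries and at 302 and 263 CPM in ES libraries.

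How many members passed depended on the libraries and on the fit. With only the compared groups in the fit, 12 members were called, against 16.2% of all genes, and without the 3 libraries that stood apart 31 were called, against 52.1% of all genes. Without DMSO replicate 2 the count was 13, against 11.9% of all genes, and without ES replicate 1 it was 24, against 48.7%. With 1 library of either group left out, the fitted difference of 8 of the 20 members moved by more than 1.5-fold, as given above for each, and in all 8 an ES library was the one left out. DESeq2 and the offset for GC trends called 22 each, against 23.4% and 43.6% of all genes. Airn, Grb10, H19, Igf2, Magel2, Mest, Nnat, Peg10, Peg3 and Slc22a18 were called in all 13 alternatives. Asb4, Dlk1 and Impact were called in 12 of them, Dio3, Plagl1 and Usp29 in 11, and Cd81, Rian and Tssc4 in 9.

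The label of the cells was set beside markers. Summed pluripotency markers (8 genes) reached 3167 to 3225 CPM in DMSO libraries, against 4714 to 5900 CPM in ES libraries, and none of them averaged under 1 CPM. Summed cardiomyocyte markers (12 genes) reached 33.4 to 34.6 CPM in DMSO libraries, against 15.3 to 16.8 CPM in ES libraries, and Tnnt2, Myl2, Nppa, Tnni1 and Tnnc1 averaged under 1 CPM in DMSO cells. The data therefore go against the label cardiomyocytes as a description of most of the RNA, and the cells are called DMSO and TCDD cells here.

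Markers of other cell types moved with this comparison. Smooth muscle markers (5 genes) summed to 576 to 593 CPM in DMSO libraries, against 5.58 to 7.69 CPM in ES libraries. Fibroblast markers (8 genes, with Dcn and Lum under 1 CPM in DMSO cells) summed to 71.2 to 86.3 CPM in DMSO libraries, against 12.3 to 13.9 CPM in ES libraries. Trophoblast markers (9 genes, with Elf5, Prl3d1, Prl2c2 and Tpbpa under 1 CPM) summed to 181 to 184 CPM in DMSO libraries, against 118 to 153 CPM in ES libraries. Endoderm markers (8 genes) summed to 7.50 to 7.79 CPM in DMSO libraries, against 20.6 to 24.5 CPM in ES libraries. Of these, Sox17, Sox7, Afp, Ttr and Cubn averaged under 1 CPM in DMSO cells. Endothelial markers (4 genes, with Cdh5 under 1 CPM in DMSO cells) summed to 108 to 112 CPM in DMSO libraries, against 143 to 170 CPM in ES libraries. Neural markers (6 genes) summed to 188 to 192 CPM in DMSO libraries, against 116 to 176 CPM in ES libraries. Blood and germ cell sums in DMSO libraries lay within the ES range, with the blood markers Ptprc and Hbb-bh1 under 1 CPM in DMSO cells. In bulk RNA fewer cells of a type and less RNA per cell cannot be told apart, and the part of these cell types in the levels of imprinted genes was not tested.

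Factors that keep or remove imprints were listed as 24 genes, all tested, of which 6 were higher and 3 lower in DMSO cells, while 15.5% of all genes were called each way. Their median log2 difference was 0.16, against 0.01 over all genes. Zfp57, which protects methylated control regions, averaged 127 ± 4.64 CPM in DMSO cells, against 311 ± 6.55 CPM in ES cells (SD, n = 2 each; -1.29 ± 0.24 log2, adjusted p = 0.00457). Dnmt1, the maintenance methyltransferase gene, averaged 334 ± 13.3 CPM in DMSO cells, against 596 ± 42.9 CPM in ES cells (-0.83 ± 0.18 log2, adjusted p = 0.00947). Both were lower in DMSO cells, as was Uhrf1, which recruits DNMT1 (-0.69 ± 0.19 log2).

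The de novo methyltransferase genes were higher: Dnmt3a averaged 521 ± 10.5 CPM in DMSO cells, against 157 ± 6.22 CPM in ES cells (adjusted p = 0.00107). Dnmt3b averaged 671 ± 17.5 CPM in DMSO cells, against 208 ± 25.3 CPM in ES cells (adjusted p = 5.10e-04). Dppa3, also called Stella, which protects the maternal genome from demethylation in the zygote, averaged 105 ± 5.53 CPM in DMSO cells, against 5.25 ± 0.846 CPM in ES cells (4.32 ± 0.47 log2, adjusted p = 2.86e-04). Tet3, which oxidises methylcytosine, was higher by 1.39 ± 0.26 log2 (adjusted p = 0.00468), and, named to complete the list, Hells and Arid4b were also higher (2.24 ± 0.64 and 2.54 ± 0.73 log2).

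A further 38 genes lie in or near imprinted regions or are imprinted in fewer tissues. Of the 32 tested, 6 were higher and 10 lower in DMSO cells, again beside 15.5% of all genes each way. Their median was -0.09, against 0.01 over all genes. Atp10a, an aminophospholipid transporter gene beside Ube3a, averaged 44.2 ± 0.135 CPM in DMSO cells, against 2.98 ± 0.0131 CPM in ES cells (SD, n = 2 each; 3.89 ± 0.20 log2, adjusted p = 1.44e-05). Osbpl5, Sfmbt2, Ampd3 and Qpct differed by 2.31 ± 0.30, 2.35 ± 0.35, -2.63 ± 0.36 and -2.16 ± 0.30 log2, and all 4 passed.

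Exposure to TCDD was compared with DMSO at 24, 72 and 96 h, with the same DMSO libraries in each comparison. At 24 h 0 of 38 tested members passed, as did 0% of all genes, and 5 members and 1296 genes had an unadjusted edgeR p under 0.05. There DESeq2 called 0 members, against 0.190% of all genes, and the fit with offsets for GC trends called 0, against 0.0329%. At 72 h 0 members passed, against 0.0461% of all genes, and 9 members and 2215 genes had an unadjusted p under 0.05. At 96 h 0 members passed, against 0.0857% of all genes, and 7 members and 1850 genes had an unadjusted p under 0.05. DESeq2 called 4 members at 72 h (Grb10, Magel2, Mirg and Nnat) and 2 at 96 h (Grb10 and Nnat), against 1.35% and 1.09% of all genes.

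The fitted differences of the members were spread around 0 at 24 h, with 15 above and 23 below and a median of -0.15, against 0.02 over all genes. At 72 h 30 lay above and 8 below 0, with a median of 0.33, against 0.03 over all genes, and at 96 h 25 lay above and 13 below, with a median of 0.21, against 0.01. Groups did not overlap for 27 members at 24 h (68.5% of all genes), for 24 at 72 h (55.6%) and for 28 at 96 h (66.7%). The members' counts are near those shares.

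**Figure D3:**
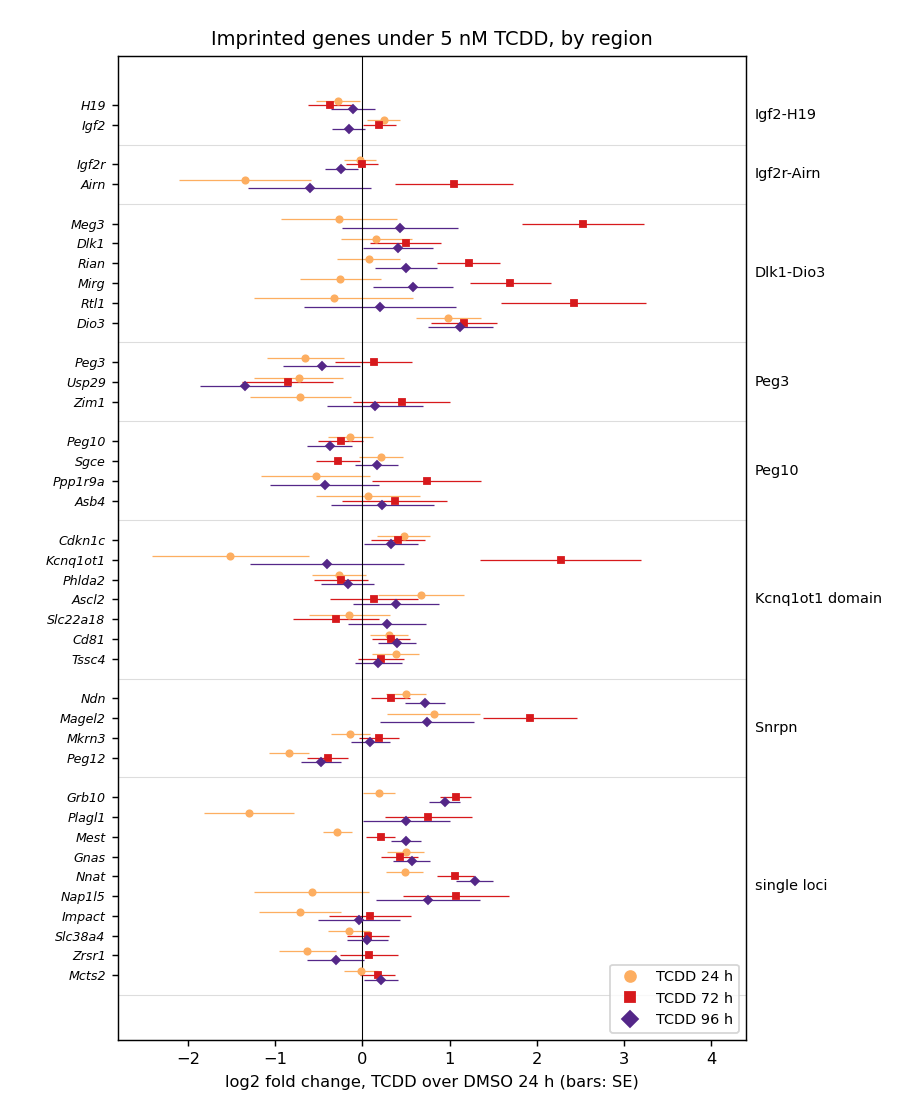
Log2 fold change of each tested imprinted gene under TCDD over DMSO at 24, 72 and 96 h (x axis, bars 1 SE, n = 2 libraries each), grouped by region. None passed; Grb10 and Nnat lie near 1 at 72 and 96 h with short bars, and Meg3, Rtl1 and Kcnq1ot1 lie above 2 at 72 h with long bars.

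Grb10 and Nnat had the smallest p-values among members at both later times. Grb10 had 9.05 and 9.18 CPM in DMSO libraries, 9.98 and 10.8 CPM in TCDD 24 h libraries, 18.7 and 19.6 CPM at 72 h and 17.3 and 17.7 CPM at 96 h. All 4 values at 72 and 96 h were above all of those at 24 h. The log2 difference from DMSO was 1.07 ± 0.18 at 72 h (adjusted p = 0.0888) and 0.94 ± 0.18 at 96 h (adjusted p = 0.0814). Nnat had 17.5 and 15.3 CPM in DMSO libraries, 26.1 and 19.7 CPM in TCDD 24 h libraries, 37.1 and 31.5 CPM at 72 h and 41.5 and 38.4 CPM at 96 h. Its TCDD values lay above its DMSO values at every time, with 1.06 ± 0.21 log2 at 72 h (adjusted p = 0.107) and 1.28 ± 0.21 log2 at 96 h (adjusted p = 0.0746). With an offset for the GC trend both genes passed at both times, among 3.05% and 4.15% of all genes.

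The calls at 96 h depended on which libraries shared the estimate of spread. With only the TCDD 96 h and DMSO libraries in the fit, 19 members passed, 12 higher and 7 lower, against 29.9% of all genes. The same 19 passed without the 3 libraries that stood apart, against 28.6%. They were Cdkn1c, Dio3, Dlk1, Gnas, Grb10, Magel2, Mest, Ndn, Nnat, Plagl1, Rian and Cd81, with values above DMSO, and Igf2r, Peg3, Peg10, Peg12, Ppp1r9a, Usp29 and Zrsr1, with values below it. These 2 pairs of libraries were the closest replicates of the study.

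Markers of other cell types also differed at 96 h, and their part in these 19 calls was not tested. Smooth muscle markers (5 genes) summed to 780 to 830 CPM at 96 h, against 576 to 593 CPM in DMSO libraries. Endothelial markers (4 genes, with Cdh5 under 1 CPM in DMSO cells) summed to 63.1 to 64.2 CPM at 96 h, against 108 to 112 CPM in DMSO libraries. Fibroblast markers (8 genes, with Dcn and Lum under 1 CPM in DMSO cells) summed to 49.0 to 49.2 CPM at 96 h, against 71.2 to 86.3 CPM in DMSO libraries. Smooth muscle sums were 603 to 799 CPM at 24 h and 392 to 539 CPM at 72 h, so they lay above DMSO at 24 and 96 h and below it at 72 h. Endothelial sums were 94.2 to 96.3 CPM at 24 h and 62.3 to 76.4 CPM at 72 h, and fibroblast sums 43.9 to 56.1 CPM and 43.6 to 59.5 CPM, all below DMSO.

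Among the 19 members Mest had 159.9 and 161 CPM in DMSO libraries, 127 and 136 CPM in TCDD 24 h libraries, 176 and 195 CPM at 72 h and 224 and 229 CPM at 96 h. It lay below DMSO at 24 h and above it at the later times (0.50 ± 0.17 log2 at 96 h, adjusted p = 0.254). Ndn had 29.5 and 25.8 CPM at 96 h, against 17.4 and 16.2 CPM in DMSO libraries (0.72 ± 0.23 log2, adjusted p = 0.222). Gnas had 336 and 338 CPM at 96 h, against 226 and 229 CPM in DMSO libraries (0.57 ± 0.21 log2, adjusted p = 0.306). Usp29 had 1.48 and 1.92 CPM at 96 h, against 3.79 and 4.87 CPM in DMSO libraries (-1.34 ± 0.52 log2, adjusted p = 0.325). In each of these genes, picked after their values were seen, the groups did not overlap, as for 66.7% of all genes at 96 h.

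At 72 h the noncoding RNAs of the Dlk1-Dio3 region, Rtl1, Kcnq1ot1 and Magel2 had high values in 1 library. Meg3 had 509.7 and 78.4 CPM at 72 h, against 48.1 and 53.9 CPM in DMSO libraries (2.53 ± 0.70 log2, adjusted p = 0.170). Rian had 279 and 130.2 CPM at 72 h, against 86.4 and 89.4 CPM in DMSO libraries (1.22 ± 0.36 log2, adjusted p = 0.187). Mirg had 24.1 and 8.16 CPM at 72 h, against 5.07 and 4.83 CPM in DMSO libraries (1.69 ± 0.46 log2, adjusted p = 0.166). In all 3 the first replicate was the high one, and both replicates lay above DMSO. Meg3 had 37.2 and 47.6 CPM at 24 h and 53.5 and 83.7 CPM at 96 h, Rian 85.7 and 98.8 CPM at 24 h and 106 and 142 CPM at 96 h.

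Kcnq1ot1 had 767 and 96.1 CPM at 72 h, against 79.7 and 98.8 CPM in DMSO libraries (2.27 ± 0.92 log2, adjusted p = 0.30), and here the second replicate lay within the DMSO range. At 24 h it had 17.4 and 45.0 CPM, and at 96 h 41.1 and 93.8 CPM. Magel2 had 17.9 and 4.88 CPM at 72 h, against 3.27 and 2.68 CPM in DMSO libraries (1.92 ± 0.54 log2, adjusted p = 0.173).

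The same library was high for nuclear RNAs that are not imprinted. Malat1 had 2777 and 418 CPM in the TCDD 72 h libraries and Neat1 259 and 32.0 CPM, so the first replicate exceeded the second by 6.64-fold and 8.10-fold. For Kcnq1ot1, Rtl1 and Meg3 that excess was 7.98-fold, 6.85-fold and 6.50-fold, and for Rn45s 4.35-fold. In ES cells the first replicate also exceeded the second for Malat1, Neat1, Kcnq1ot1 and Meg3 (7.30, 3.25, 3.28 and 1.61-fold), but not for Rn45s (0.467-fold). At TCDD 24 h it lay below the second (0.369, 0.619, 0.387 and 0.783-fold, and 0.607-fold for Rn45s). Malat1 averaged 319 CPM in DMSO cells, against 76.0 CPM in ES cells. The part of these differences between libraries in the levels of the imprinted RNAs was not tested. Without TCDD 72 h replicate 2, which leaves the first replicate alone, 7 members passed at 72 h: Grb10, Magel2, Meg3, Mirg, Nnat, Rian and Rtl1, against 6.08% of all genes. Without the 3 libraries that stood apart, the first replicate among them, 7 passed as well, namely Cd81, Cdkn1c, Gnas, Grb10, Nnat, Peg12 and Usp29, against 12.8% of all genes. Grb10 and Nnat were in both sets.

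**Figure D4:**
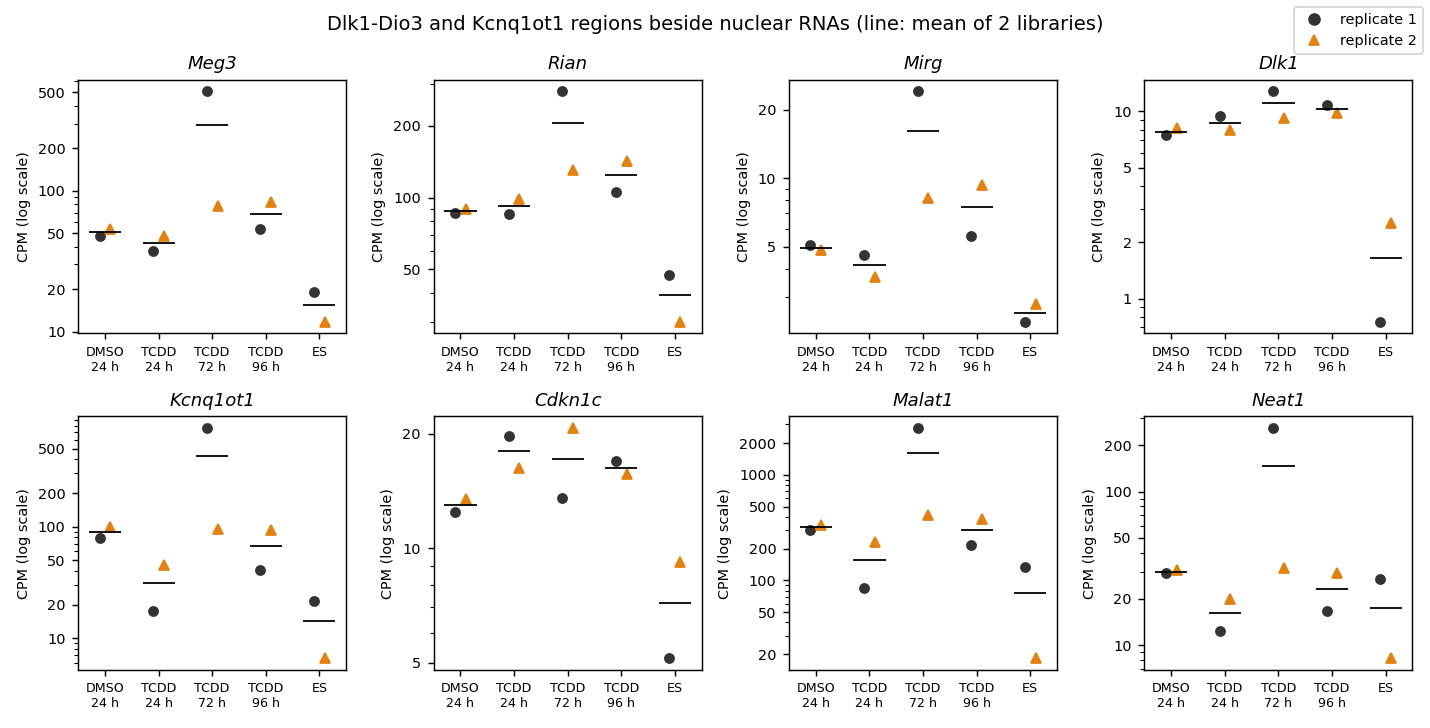
Level in each library (y axis, CPM on a log scale; points are libraries, the line the mean of 2) of members of the Dlk1-Dio3 and Kcnq1ot1 regions and of the nuclear RNAs Malat1 and Neat1. TCDD 72 h replicate 1 stands at 510 CPM for Meg3, 767 CPM for Kcnq1ot1 and 2777 CPM for Malat1, while its Dlk1 value of 12.8 CPM lies near the other TCDD libraries.

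The partners of these noncoding RNAs moved less between replicates. Dlk1 had 7.49 and 8.12 CPM in DMSO libraries and, under TCDD, 9.45 and 7.97 CPM at 24 h, 12.8 and 9.26 CPM at 72 h and 10.9 and 9.79 CPM at 96 h. Cdkn1c had 12.5 and 13.5 CPM in DMSO libraries and, under TCDD, 19.7 and 16.3 CPM at 24 h, 13.6 and 20.7 CPM at 72 h and 16.9 and 15.6 CPM at 96 h, so every TCDD value of Cdkn1c lay above both DMSO values. The mean log2 ratio of Meg3 to Dlk1 counts was 2.70 in DMSO libraries and 2.28, 4.19 and 2.69 under TCDD at 24, 72 and 96 h. That of Kcnq1ot1 to Cdkn1c was 2.77 in DMSO libraries and 0.64, 4.01 and 1.93 under TCDD.

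The growth factor locus gave small fitted differences under TCDD. Igf2 had 327 and 386 CPM at 24 h, 379 and 309 CPM at 72 h and 257 and 283 CPM at 96 h under TCDD, with log2 differences from DMSO of 0.24 ± 0.19, 0.19 ± 0.19 and -0.16 ± 0.19. H19 had 203 and 176 CPM at 24 h, 140.2 and 218 CPM at 72 h and 219 and 209 CPM at 96 h, with -0.28 ± 0.25, -0.37 ± 0.25 and -0.11 ± 0.25 log2. All 6 TCDD values of H19 lay below both DMSO values. At the receptor locus Igf2r had 110.0 and 111 CPM at 24 h, 126 and 98.2 CPM at 72 h and 96.7 and 93.9 CPM at 96 h. Airn had 0.384 and 0.471 CPM at 24 h, 3.49 and 1.15 CPM at 72 h and 0.329 and 1.13 CPM at 96 h, and its DMSO values lay inside that range.

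At 24 h Plagl1 and Peg12 had the lowest p-values among members below DMSO. Plagl1 had 3.80 and 6.77 CPM at 24 h, against 12.0 and 14.0 CPM in DMSO libraries (-1.30 ± 0.52 log2, adjusted p = 0.521). At 72 h it had 29.6 and 14.5 CPM and at 96 h 16.3 and 20.5 CPM, all above the DMSO values. Peg12 had 3.19 and 3.55 CPM at 24 h, against 5.84 and 6.26 CPM in DMSO libraries (-0.84 ± 0.23 log2, adjusted p = 0.521). Peg3 had 111 and 218 CPM and Impact 72.0 and 113 CPM in the TCDD 24 h libraries, both lowest in replicate 1. That library had a GC trend of 1.16 on the log2 scale, whose part was not tested. Without the 3 libraries that stood apart, 5 members passed at 24 h (Gnas, H19, Peg12, Phlda2 and Plagl1), against 4.98% of all genes.

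Peg10, Peg3 and Impact, which were higher in DMSO cells than in ES cells, did not pass under TCDD. Peg10 had 650.0 and 870.3 CPM at 24 h, 762 and 650.4 CPM at 72 h and 598 and 695 CPM at 96 h, all below the higher DMSO value of 886 CPM. Peg3 had 306 and 260.1 CPM at 72 h and 164 and 210.4 CPM at 96 h, and Impact 161 and 163 CPM at 72 h and 129 and 168 CPM at 96 h. Every TCDD value of these 3 genes was above both ES values.

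Sgce had 9.60 and 10.6 CPM at 24 h, 5.58 and 8.69 CPM at 72 h and 9.82 and 9.68 CPM at 96 h, and the fitted differences from DMSO were 0.21 ± 0.25, -0.28 ± 0.25 and 0.16 ± 0.25 log2. Cd81 had 186 and 159.8 CPM at 24 h, 150.5 and 199.9 CPM at 72 h and 189 and 179 CPM at 96 h, and Tssc4 34.9 and 27.0 CPM at 24 h, 27.0 and 28.0 CPM at 72 h and 27.3 and 26.5 CPM at 96 h. Every TCDD value of Cd81 and Tssc4 lay above both DMSO values, although neither gene passed at any time. Such separation, also given above for Nnat, Cdkn1c and H19, held for Grb10, Dio3, Gnas, Ndn and Magel2, with TCDD values above DMSO. Usp29 and Peg12 had all TCDD values below both DMSO values. Dio3, at a low level, differed by 0.99 ± 0.37, 1.16 ± 0.38 and 1.12 ± 0.37 log2 at 24, 72 and 96 h and did not pass. This separation rests on the same 2 DMSO libraries at every time. At single times the groups did not overlap for 55.6 to 68.5% of all genes. The share of all genes lying to one side of DMSO at all 3 times was not counted. The members not given by library under TCDD had fitted differences inside the range of those described, from -1.51 for Kcnq1ot1 at 24 h to 2.53 for Meg3 at 72 h.

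Exposed cells at 96 h were compared with those at 24 h, both under TCDD. No DMSO library enters this difference, but time in culture still does. Of 38 members 0 passed, as did 0% of all genes, and 4 members and 1761 genes had an unadjusted p under 0.05; DESeq2 called 1, Plagl1, against 0.551% of all genes. Fitted differences lay above 0 for 29 members and below for 9, with a median of 0.22, against 0.03 over all genes, and 20 had groups without overlap, against 60.5% of all genes. The members with an unadjusted p under 0.05 were Mest (0.79 ± 0.17 log2, adjusted p = 0.225), Grb10 (0.75 ± 0.18, adjusted p = 0.230), Nnat (0.80 ± 0.21, adjusted p = 0.267) and Plagl1 (1.8 ± 0.52, adjusted p = 0.297). In each of them both values at 96 h were above both at 24 h. A test over the DMSO and 3 TCDD groups together called 0 members, against 0.0527% of all genes, with Grb10 having the smallest adjusted p, 0.129; DESeq2 called 13, against 12.7% of all genes. The GC offset and the fit on these groups alone called 2 members each, against 2.43% and 1.72% of all genes, and the removal of the 3 libraries gave 15, against 25.9%. Without TCDD 72 h replicate 2 there were 6, against 3.55%.

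Among the factors that keep or remove imprints 0 of 24 passed under TCDD at any time. Zfp57 averaged 127 ± 4.64 CPM in DMSO cells and, under TCDD, 99.3 ± 0.846 CPM at 24 h, 90.4 ± 29.9 CPM at 72 h and 62.0 ± 9.17 CPM at 96 h (SD, n = 2 each), and had the lowest p of the list at 96 h (-1.04 ± 0.24 log2, adjusted p = 0.120). Of the 24 fitted differences 16 lay below 0 at 24 h, 15 at 72 h and 19 at 96 h. Their medians were -0.28, -0.17 and -0.25, against 0.02, 0.03 and 0.01 over all genes. Dnmt3b had the lowest p of the list at 24 h (0.99 ± 0.20 log2, adjusted p = 0.391). It averaged 671 ± 17.5 CPM in DMSO cells and, under TCDD, 1328 ± 153 CPM at 24 h, 871 ± 106 CPM at 72 h and 900 ± 81.5 CPM at 96 h. The other genes of imprinted regions gave 0 of 32 at any time, with medians of -0.04, 0.04 and 0.02 at 24, 72 and 96 h. Summed pluripotency markers were 3167 to 3225 CPM in DMSO libraries and, under TCDD, 3327 to 3714 CPM at 24 h, 2231 to 2411 CPM at 72 h and 2311 to 2463 CPM at 96 h. Their part in the values of the imprinted genes was not tested.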

How the data were processed

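Libraries were directional and made from polyadenylated RNA, per the labels' protocols. The authors deposited whole-number counts per gene that they had not normalized. Reads were processed with TopHat, edgeR, bcl2fastq and CASAVA 1.8 on the build mm10, per the submitters' processing notes. The software that counted reads, its strandedness option and the gene models were not given in the sources used here. An unnamed row with 0.000201 to 0.00285% of a library's counts was left out. Columns were assigned to samples by the names in the labels, and 0 columns of per-sample values were unmapped.

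The main test was the quasi-likelihood F test of edgeR 4.0.16 in R 4.3.3. All 10 libraries entered a single fit of 5 group means with TMM scaling. The default filter left 15175 genes (61.8%) and 5 residual degrees of freedom. P-values are two-sided and adjusted by Benjamini-Hochberg over those genes within each comparison, with calls at an adjusted p under 0.05. CPM are the deposited counts over TMM-scaled library sizes, and log2 differences carry the SE of the fit. The script was tested on simulated data, with changes set between DMSO and ES cells. It recovered 14% of 100 genes changed 2-fold and 83% of 100 genes changed 4-fold, with 8 false calls. A gene that did not pass is thus not shown to be unchanged, above all for differences near 2-fold. In the simulated data no other gene of the 14914 tested was changed, whereas 31.0% of genes were called between DMSO and ES cells. The share recovered in the real comparison may therefore differ, and no TCDD comparison was simulated. Alternatives were RLE scaling, no filter, 1 CPM in 2 libraries, DESeq2 1.42.0, a fit of the compared groups alone, the replicate number as a block, GC trends offset by loess (span 0.3; GC known for 95.87% of tested genes), that offset with the block, each library left out, and the joint removal of 3 libraries that stood apart (replicate 1 of TCDD 24 h, replicate 1 of TCDD 72 h, and replicate 2 of ES).

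Values per library are given for members that pass and average at least 5 CPM in a compared group and for the pairs Igf2 and H19, Dlk1 and Meg3, Igf2r and Airn, and Cdkn1c and Kcnq1ot1, and others by range and counts. Usp29, which passed but averaged under 5 CPM in DMSO and ES cells, was given by library beyond this rule. Members given library by library under TCDD without passing were picked after their values were seen, mostly for an unadjusted p under 0.05. Up to 6 genes by smallest p are named from each further list; Uhrf1, Hells and Arid4b, which complete the calls among the factors for imprints, and Ddc were named beyond it after their values were seen. The members, the lists and the libraries removed together were chosen with earlier results of these data known. Members matched RefSeq by Entrez identifier for 40 of 40, and coordinates and promoters are credited to RefSeq on GRCm38.p6, the assembly of mm10.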

Additional observations from a re-analysis of the deposited data

How the results depend on the processing

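In DMSO cells against ES cells 20 members were called, 12 with only the compared groups in the fit, 31 without the 3 libraries that stood apart, and 13 (without DMSO replicate 2, with 1902 genes called in all) to 24 (without ES replicate 1, with 7736) with 1 library left out. Sgce turned to -0.64 with the GC offset and to -0.63 with the GC offset and replicate block. Under TCDD at 24 h 5 members were called without the 3 libraries, and 0 to 0 with 1 library left out. At 72 h DESeq2 called 4, the GC offset 2, the GC offset with block 1, and the removal of the 3 libraries 7, and 0 to 7 were called with 1 library left out, 7 being without TCDD 72 h replicate 2 (969 genes in all). At 96 h the counts were 2 for DESeq2, 2 for the GC offset, 2 for that offset with block, 1 (Nnat) with no filter, 19 with only the compared groups, 19 without the 3 libraries, and 0 to 0 with 1 library left out. At 96 h against 24 h they were 1 for DESeq2, against 0.551% of all genes, and 1 for the GC offset (Nnat), against 0.580%. Removal of the 3 libraries left 1 library at 24 h. The differences of Mest, Grb10, Nnat and Plagl1 were then 0.72, 0.68, 1.00 and 1.42 log2, and those of Igf2 and Peg10 -0.53 and -0.45. Over the DMSO and TCDD groups together DESeq2 called 13, the GC offset 2, the GC offset with block 1, the compared groups alone 2 and the removal of the 3 libraries 15, with 0 to 6 when 1 library was left out (6 without TCDD 72 h replicate 2, with 565 genes in all). Of the 15175 tested genes, the GC offset with block called 153 at 72 h, 281 at 96 h and 79 over the DMSO and TCDD groups together. The cause of these shifts between settings was not tested.

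The labels do not say whether replicate numbers pair the samples. Correlations of same-numbered deviations between groups ran from -0.755 to 0.448, which cannot decide this with 2 libraries per group. With the replicate block 19 members were called in DMSO cells against ES cells, Sgce being lost, and 0 in each TCDD comparison and over the groups together. Depth limits Snrpn, Rasgrf1, Airn, Asb4 and Rtl1, which had few counts. A group left with 1 library by a removal is taken to vary as the other groups do.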
